A study of Brassica rapa subsp. chinensis with 6 samples.

Results

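The myrosinase family of pakchoi (Brassica rapa subsp. chinensis) is described here in a comparison of the chlorotic mutant strain 564Y with its wild type strain 564. The mutant and the wild type had 3 libraries each, which the labels call biological replicates, made from RNA of all aboveground parts at a stage named trifoliate. The protocol also mentions more than 1 time point, which the labels do not assign, so that all libraries are of 1 stage rests on the stage label alone. No source used here names the mutated gene or says how the mutant arose. The members are the genes whose sequence match is described as myrosinase, thioglucoside glucohydrolase, thioglucosidase or TGG with a digit, and 10 of the 2958 genes in the authors' deposited table met this rule. The table lists only genes that the authors called different between the strains, so myrosinase genes outside it were not analysed here.

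Myrosinases are beta-thioglucosidases that cut the sugar from glucosinolates, defence compounds of the cabbage family that contain sulfur. The unstable product turns into isothiocyanates, which are toxic to many herbivores, or into nitriles and thiocyanates, depending on specifier proteins. In Arabidopsis the leaf enzymes TGG1 and TGG2 are held in the vacuoles of guard cells and of myrosin cells, a scattered cell type along the veins, apart from the cells that store glucosinolates. Myrosinase-binding proteins are lectins with jacalin domains, and myrosinase-associated proteins resemble GDSL lipases, and both were found in complexes with the enzyme in Brassica napus seeds.

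Of the 10 members, 8 were described as the enzyme, 1 as a myrosinase-associated protein and 1 as a myrosinase-binding protein. In the mutant, 8 of the 10 were lower and 2 were higher by the authors' calls, while 40.3% of all genes in the table were lower and 59.7% were higher. The lower members were 7 of the 8 enzyme genes and the associated protein gene, and the higher ones were the remaining enzyme gene and the binding protein gene. In the authors' deposited table the median log2 ratio of the 10 members was -1.50, against 1.15 over the 2810 genes with reads in both strains. The size of the fall was close to that of other lower genes: the median of the 7 lower enzymes was -1.68, against -1.54 over all 1129 lower genes with reads in both strains.

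Read counts of single libraries were worked out from the authors' group means for 9 of the 10 members in both strains. The libraries are called A, B and C within each strain, from the largest to the smallest size factor (the authors' scaling for depth), because their replicate numbers are unknown. Values below are normalised reads, meaning reads divided by this factor, and they are not corrected for gene length unless this is said. The mutant and wild type libraries did not overlap in any of the 9 members, and the same held for 100% of the 2619 genes of the table with such counts. The authors had chosen every one of these genes for its difference. At an adjusted p of 0.05, edgeR's quasi-likelihood test called 100% of them, 43.2% lower and 56.8% higher in the mutant, and called 7 of the 9 members lower and 2 higher. The adjusted p-values given for members therefore describe genes already chosen for the contrast and are no independent evidence.

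Among the lower enzymes, 4 genes had an absolute log2 ratio under 2, and together they carried most of the enzyme reads. They were grouped by this limit, so their similar fall was partly set in advance. Their level did not set the group. Bra039823, described below, had a wild type mean of 298 normalised reads, above the 288 of Bra038094 in this group. Bra020549 had 290.1, 219 and 215 normalised reads in mutant libraries A, B and C, against 835, 660.2 and 818 in the wild type libraries. Its mean was 241 ± 42.2 in the mutant and 771 ± 96.3 in the wild type (SD, n = 3 each), a 3.19-fold fall. The lowest wild type library was 2.28 times the highest mutant library. Bra032343 had 279.5, 245 and 226 normalised reads in the mutant libraries, against 692, 610.4 and 803 in the wild type libraries, and was 2.81-fold lower in the mutant. Bra020523, described as myrosinase 2, had 191, 165 and 207 normalised reads in the mutant libraries, against 489, 458 and 558 in the wild type libraries, and was 2.67-fold lower. Bra020523 was the lowest of these 3 genes in all 6 libraries, while Bra020549 and Bra032343 lay within each other's spread in both strains.

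Bra038094, the next of these 4 genes, had 106, 103 and 95.7 normalised reads in the mutant libraries, against 314, 267 and 283 in the wild type libraries. It was 2.84-fold lower in the mutant, with a coefficient of variation of 5.06% over the mutant libraries and 8.33% over the wild type libraries. The table as a whole had median coefficients of 11.9% in the mutant and 12.1% in the wild type, over genes with at least 20 normalised reads. The changes fitted by edgeR for the 4 genes ran from -1.67 (SE 0.13, Benjamini-Hochberg adjusted p = 1.17e-09) for Bra020549 to -1.42 (SE 0.13, adjusted p = 1.08e-08) for Bra020523 on the log2 scale. Their 95% intervals all overlapped, so no order of fall can be read among them.

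Bra039823, the enzyme gene with the longest coding sequence, was less even between libraries. It had 67.2, 59.7 and 64.5 normalised reads in the mutant libraries, against 243, 417 and 233 in the wild type libraries. Wild type library B stood above the other 2, and the coefficient of variation was 6.02% over the mutant libraries and 34.8% over the wild type libraries. The mean was 4.67-fold lower in the mutant, and 3.73-fold lower without wild type library B. The edgeR estimate was -2.22 on the log2 scale (SE 0.21, adjusted p = 1.35e-08). In that same wild type library B, Bra020549, Bra032343, Bra020523 and Bra038094 were each at their lowest of the 3 wild type libraries. The excess of Bra039823 there was thus not shared by these 4 genes.

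**Figure D1:**
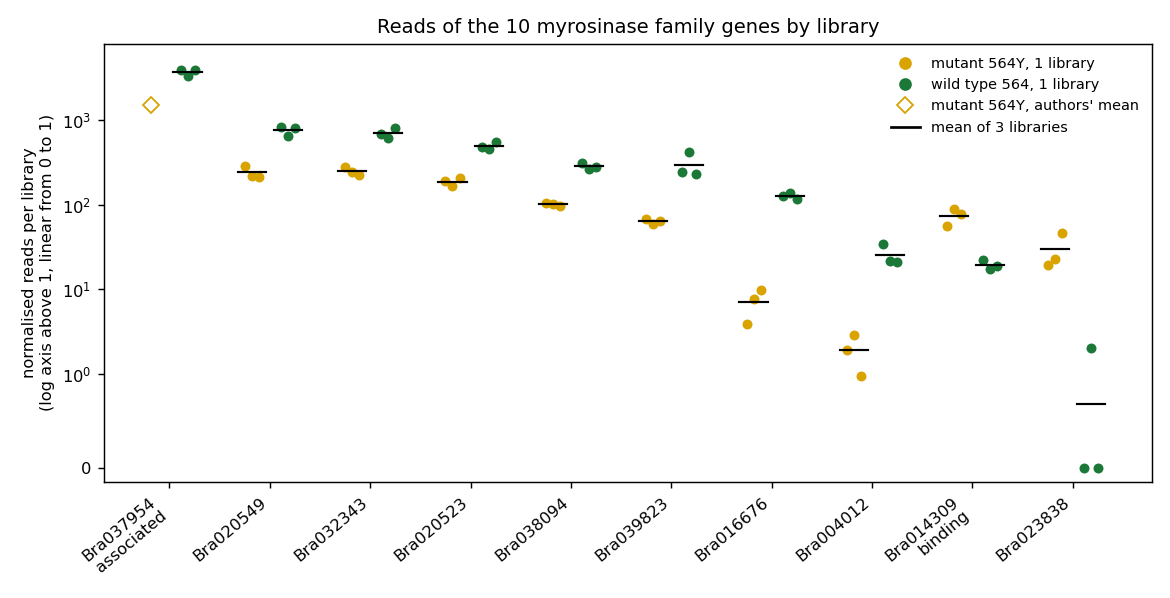
Normalised reads per library (vertical axis, logarithmic above 1 and linear from 0 to 1) of the 10 genes, with mutant 564Y libraries left of wild type 564 libraries, 1 point per library and the mean of 3 as a bar. The open diamond is the authors' mean of Bra037954 in the mutant, 1538, for which no single set of library counts could be found; the 8 genes on the left are lower in the mutant and the 2 on the right are higher.

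With the limit on the absolute log2 ratio raised to 2 in the authors' deposited table, 3 members were lower and 1 was higher, while 13.3% of all its genes were lower and 24.6% higher at this limit. Bra039823 is one of these 3. At an authors' adjusted p under 1e-10, 6 members were lower and 0 higher, while 22.9% of all genes were lower and 31.7% higher. The deepest falls were in a pair of enzyme genes that shared their best sequence match, a Brassica napus myrosinase, and had the same coding length of 1617 bases. Bra016676 had 3.84, 7.70 and 9.77 normalised reads in the mutant libraries, against 129, 136 and 119 in the wild type libraries, an 18-fold fall. Bra004012 had 1.92, 2.89 and 0.977 normalised reads in the mutant libraries, against 34.4, 21.4 and 20.8 in the wild type libraries, a 13.2-fold fall. Both genes were near the lower end of detection in the mutant, with 22 and 6 reads over its 3 libraries. Counting error alone gives 95% limits of 11.7 and 29.1 for the fold of Bra016676 and of 5.80 and 37.2 for that of Bra004012.

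The edgeR estimates of this pair were -4.15 (SE 0.28, adjusted p = 1.08e-10) for Bra016676 and -3.64 (SE 0.55, adjusted p = 4.3e-06) for Bra004012 on the log2 scale. Their 95% intervals, from -4.74 to -3.56 and from -4.80 to -2.49, overlapped each other. Both lay wholly below those of the 4 enzyme genes grouped above, the lowest of which reached -1.96. The interval of Bra039823, from -2.67 to -1.77, overlapped that of Bra004012 but not that of Bra016676. Those 4 genes had been grouped by an absolute log2 ratio under 2, so a gap to them was partly set in advance. The difference in fall between genes was not tested further. No source used here says how the authors counted reads that fit several gene copies, so the split of reads within this pair is uncertain.

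A single enzyme gene, Bra023838, rose. It had 19.2, 23.1 and 46.9 normalised reads in mutant libraries A, B and C, against 0, 2.03 and 0 in the wild type libraries. Both wild type reads came from library B, and mutant library C was above the sum of the other 2 mutant libraries. The ratio of means was 43.8, with counting limits of 11.7 and 364, and leaving out wild type library B gave a rise of at least 19.3-fold, with 3 reads over the other 2 libraries as the floor. The edgeR estimate was 5.21 on the log2 scale (SE 0.76, adjusted p = 2.72e-06). Bra023838 shared its best sequence match, a Brassica napus thioglucoside glucohydrolase, with Bra038094, which fell 2.84-fold. The match therefore did not go with the direction in this second pair, whereas both members of the other pair fell. The split of reads that could fit both genes is likewise uncertain in this second pair.

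**Figure D2:**
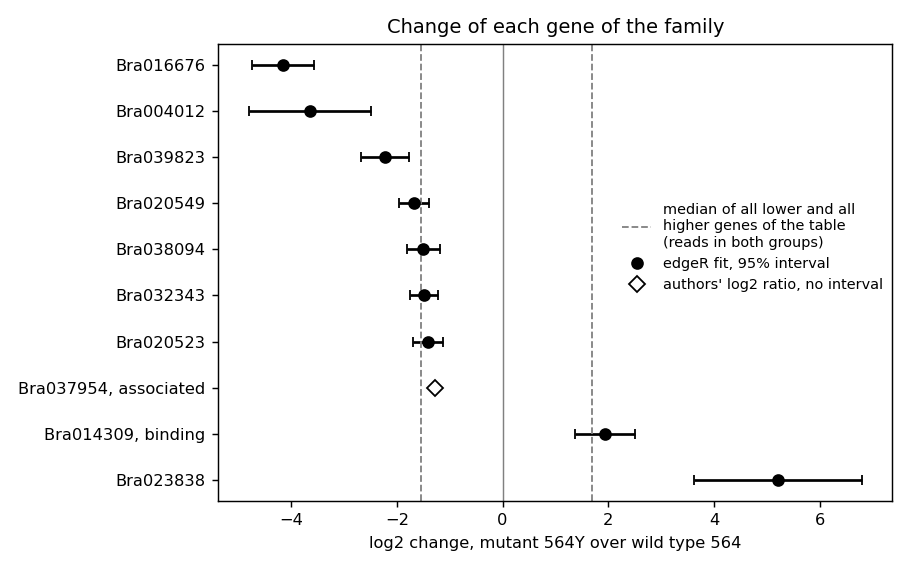
Log2 change of each member, mutant 564Y over wild type 564 (horizontal axis), with points and 95% intervals from edgeR and the authors' log2 ratio as an open diamond for Bra037954. Dashed lines mark the medians of all lower (-1.54) and all higher (1.70) genes of the table, and Bra016676 and Bra004012 lie furthest to the left of the first.

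The myrosinase-associated protein gene, Bra037954, was the most abundant member in both strains. The authors' means were 1538 normalised reads in the mutant and 3723 in the wild type, a 2.42-fold fall, with an adjusted p-value of 2.27e-31 in the authors' deposited table. The wild type libraries had 3917, 3349 and 3903 normalised reads. In the mutant, 9 different sets of library counts gave the authors' means, and over these sets single libraries ranged from 643 to 2524. Even the highest of these was below the lowest wild type library, by a factor of 1.33, so the strains did not overlap under any of the 9 sets.

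The myrosinase-binding protein gene, Bra014309, went the other way. It had 55.7, 89.5 and 78.1 normalised reads in the mutant libraries, against 22.3, 17.3 and 18.7 in the wild type libraries, and its mean was 3.83-fold higher in the mutant. The lowest mutant library was 2.50 times the highest wild type library. The edgeR estimate was 1.93 on the log2 scale (SE 0.27, adjusted p = 1.81e-06). The family held 1 gene of each kind of protein reported in complexes with the enzyme, and these moved in opposite directions. The associated protein gene was down and the binding protein gene was up. Single genes do not speak for the kinds, and jacalin lectin genes outside the family went both ways, as given below.

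Taken per kilobase of coding length, the order of levels among the enzymes was the same in both strains for the 5 most abundant genes. Per kilobase, Bra020549 had 306 normalised reads in the mutant and 977 in the wild type, and Bra032343 had 248 in the mutant and 696 in the wild type. Bra020523 followed with 204 in the mutant and 544 in the wild type, then Bra038094 with 78.5 in the mutant and 223 in the wild type, and Bra039823 with 38.4 in the mutant and 179 in the wild type. At the low end the order turned over. Bra023838 had 19.2 normalised reads per kilobase in the mutant, above the 4.39 of Bra016676 and the 1.19 of Bra004012, while in the wild type it had 0.438, below the 79.1 and 15.8 of these 2 genes. The coding lengths of Bra020549, Bra020523 and Bra032343 were 789, 921 and 1008 bases, against 1548 to 1659 bases for 4 of the other enzyme genes, so the 3 most abundant enzymes are annotated as shorter genes.

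Summed over the 8 enzyme genes, the mutant libraries held 959, 826 and 865 normalised reads, against 2736, 2572 and 2834 in the wild type libraries. The mean sum was 884 ± 67.9 in the mutant and 2714 ± 133 in the wild type (SD, n = 3 each), a 3.07-fold fall. In a sample of whole shoots, fewer myrosinase-bearing cells and less enzyme RNA per cell cannot be told apart. The reads of the associated protein gene alone were 1.74 times the enzyme sum in the mutant and 1.37 times in the wild type. No test is given for these sums, because the genes in them were listed for their difference.

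The make-up of the enzyme reads was similar in the strains for the abundant genes and differed for the rare ones. The 4 abundant genes together made up 90.4%, 88.7% and 85.9% of enzyme reads in the mutant libraries, against 85.2%, 77.6% and 86.9% in the wild type libraries, and these ranges overlapped. The pair Bra016676 and Bra004012 made up 0.601%, 1.28% and 1.24% in the mutant libraries, against 5.96%, 6.13% and 4.92% in the wild type libraries, with no overlap. The 4 genes and this pair had been grouped by their log2 ratios. The overlap in the first and the gap in the second were therefore partly set in advance. Bra023838 accounted for 2.0%, 2.79% and 5.42% of the enzyme reads in the mutant libraries, against 0%, 0.0791% and 0% in the wild type libraries. The 0 of 2703 and 0 of 2724 enzyme reads in wild type libraries A and C allow shares of up to 0.111% and 0.110% by counting error alone. Of the 8 enzymes, Bra023838 ranked below all the others in the wild type and above Bra016676 and Bra004012 in every mutant library.

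**Figure D3:**
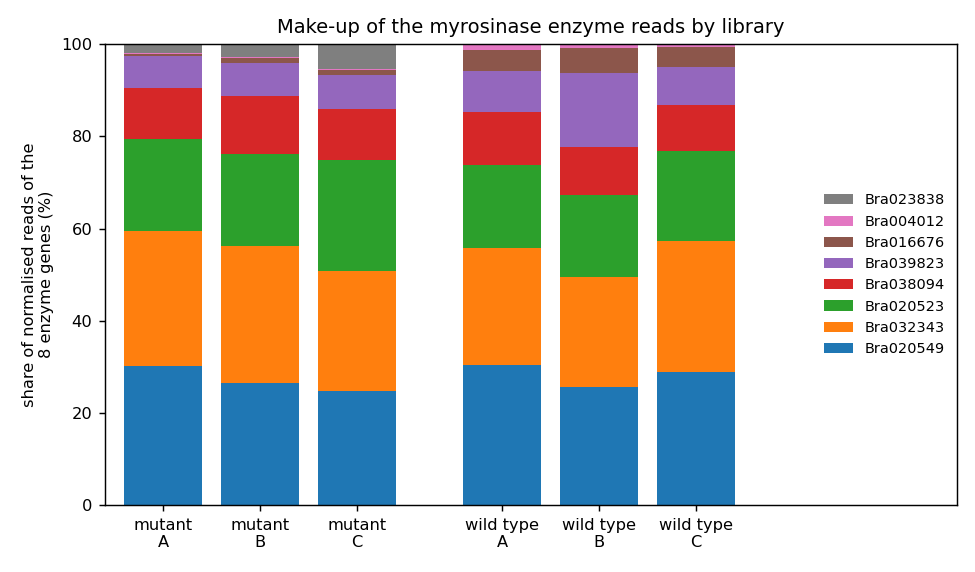
Share of the normalised reads of the 8 enzyme genes taken by each gene (vertical axis, percent), with mutant 564Y libraries A to C left of wild type 564 libraries A to C. The 4 lowest blocks fill 77.6% to 90.4% of every bar, the Bra016676 and Bra004012 blocks are thin in the mutant bars, and the grey Bra023838 block is visible only there.

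Genes whose products act on myrosinase products or resemble its partners were mostly higher. Of 6 such genes in the table, 5 were higher in the mutant and 1 was lower, where 59.7% of all table genes were higher. In the authors' deposited table their median log2 ratio was 3.18. It was 1.15 over genes with reads in both strains, and 1.70 over the higher ones of these. The gene described as epithiospecifier modifier (Bra027358), whose Arabidopsis counterpart ESM1 favours isothiocyanates over nitriles, had 920.2, 655 and 514 normalised reads in the mutant libraries, against 100.2, 20.3 and 15.6 in the wild type libraries. It was 15.3-fold higher in the mutant, and 38.7-fold higher without wild type library A, which stood above the other 2. The gene described as nitrile specifier protein NSP4 (Bra018944), of a family that directs breakdown towards nitriles in Arabidopsis, had 35.5, 38.5 and 37.1 normalised reads in the mutant libraries, against 2.02, 2.03 and 8.32 in the wild type libraries. It was 8.98-fold higher, and 18.3-fold higher without wild type library C.

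The remaining 4 genes of this group were lectins or lectin-like. The genes described as jasmonate inducible protein, Bra021179 and Bra022160, were 15.8-fold and 9.19-fold higher in the mutant. Their means were 323 ± 56.8 and 282 ± 34.7 normalised reads in the mutant, against 20.4 ± 5.43 and 30.7 ± 5.89 in the wild type (SD, n = 3 each). The jacalin lectin gene Bra021175 was 4.26-fold higher. The other jacalin lectin gene, Bra000129, was the single lower one, with 279.5, 314 and 265 normalised reads in the mutant libraries, against 2418, 2445 and 2310 in the wild type libraries, an 8.36-fold fall. Because Bra000129 was so abundant, the summed level of the 6 genes was 1688 normalised reads in the mutant and 2506 in the wild type, opposite in direction to the count.

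Other beta-glucosidases, which belong to the same glycoside hydrolase family as myrosinase but mostly cut oxygen-linked sugars, had 1 higher and 4 lower genes, where 59.7% of all table genes were higher and 40.3% lower. BGLU15 (Bra004836) had 67.2, 76 and 86.9 normalised reads in the mutant libraries, against 290.5, 235 and 298 in the wild type libraries, a 3.58-fold fall. Bra004837, whose identifier follows that of BGLU15, was 9.64-fold lower, with 3.88 normalised reads in the mutant and 37.4 in the wild type. Bra007507 and Bra015096 fell 2.08-fold and 2.17-fold. BGLU27 (Bra014511) was 3.39-fold higher, with 76 ± 6.66 normalised reads in the mutant and 22.4 ± 13.1 in the wild type (SD, n = 3 each). In the authors' deposited table the list's median log2 ratio was -1.12, while that of the 8 myrosinase enzymes was -1.59.

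**Figure D4:**
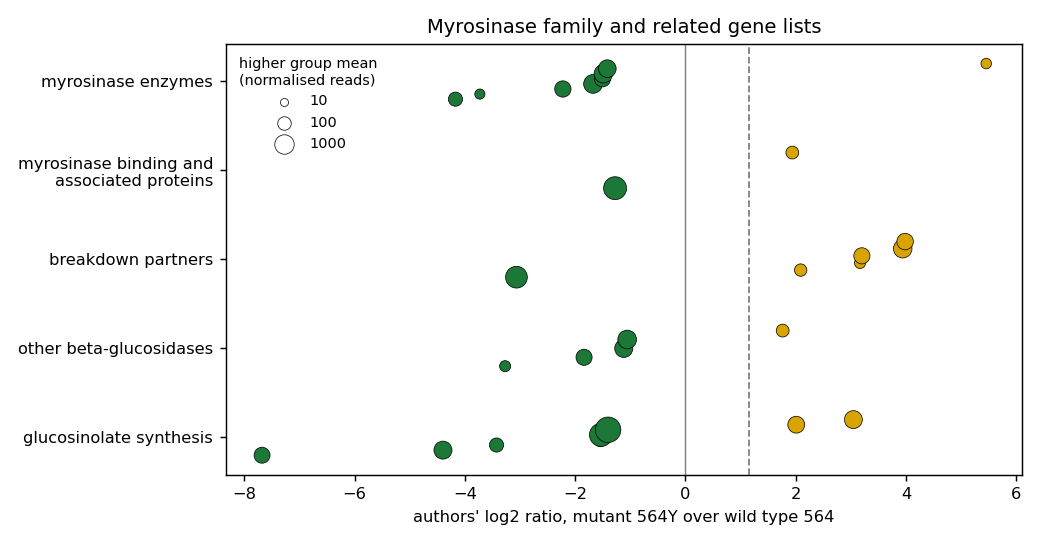
The authors' log2 ratio, mutant 564Y over wild type 564 (horizontal axis), of each listed gene with reads in both strains, by list; point area grows with the higher group mean, gold points are higher and green points lower in the mutant. The dashed line is the median of the table at 1.15; 5 of 6 breakdown partners lie to its right and 7 of 8 enzymes lie left of 0.

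Of 9 genes matched to glucosinolate synthesis, which supplies the substrates of myrosinase, 2 were higher and 7 were lower, where 59.7% of all table genes were higher and 40.3% lower. Their median log2 ratio in the authors' table as deposited was -1.54, against 1.15 over genes with reads in both strains. Over the lower ones of those genes the median was also -1.54. The authors' means of CYP83B1 (Bra034941), which oxidises aldoximes in the core pathway, were 3681 in the mutant and 9732 in the wild type. Those of the C-S lyase gene SUR1 (Bra036490) were 1378 in the mutant and 3981 in the wild type. Genes of 1 description went opposite ways here too. The methylthioalkylmalate synthase gene Bra013009, of the side-chain elongation step, was 21.1-fold lower in the mutant, while Bra013011 was 8.26-fold higher, and 22.0-fold higher without wild type library A. CYP81F4, which modifies indole glucosinolates in Arabidopsis, was 10.7-fold lower as Bra010598 and 4.03-fold higher as Bra011759.

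Also in this list, AOP1 (Bra000848), of a family of dioxygenases that includes side-chain modifying enzymes, had 2.88, 0.962 and 0 normalised reads in the mutant libraries, against 280.3, 266 and 240.4 in the wild type libraries. Its mean was 205-fold lower in the mutant, and 545-fold lower without mutant library A. CYP81F3 was 2.91-fold lower as Bra011758. As Bra010597 it had 0 reads in the mutant and 12.7 normalised reads in the wild type, at least 13.1-fold lower with 3 reads over the mutant libraries as the floor, or at least 8.71-fold lower without mutant library A and 8.72-fold without mutant library B. The lists of nitrilases, glucosinolate regulators, glucosinolate transporters and vacuolar sorting proteins of myrosin cells each matched 0 genes of the table.

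Markers of cell types that could hold myrosinase were looked up in the same table. Of the guard cell and myrosin cell list, which includes FAMA, the factor that specifies both cell types in Arabidopsis, 0 defining markers were matched. The 1 match was SLAH2 (Bra040840), a homologue of the guard cell anion channel SLAC1, with 449.5 ± 51 normalised reads in the mutant and 17.0 ± 5.46 in the wild type (SD, n = 3 each). Markers outside the table can be unchanged, unexpressed or described in other words. Root markers, listed because TGG4 and TGG5 are root enzymes in Arabidopsis, had 2 higher genes and 1 lower. This is near the shares over all table genes, of which 59.7% were higher and 40.3% lower. The summed levels of the root markers were 88.0 normalised reads in the mutant and 32.0 in the wild type. MLP34 (Bra003939) had 34.6, 25.0 and 34.2 normalised reads in the mutant libraries, against 0, 0 and 1.04 in the wild type libraries. This low or absent level in the wild type was like that of Bra023838. It was not particular to this marker, as 85 genes of the table had no wild type read and were higher in the mutant. Any part of MLP34 in the rise of Bra023838 was not tested.

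RHD2 (Bra029194), an oxidase of root hairs, was 7.24-fold higher in the mutant, while PERK13 (Bra016218), a kinase of root hairs, had 0 reads in the mutant libraries and 23.9 normalised reads in the wild type. The flower list matched 14 genes, 10 higher and 4 lower, where 59.7% of all table genes were higher and 40.3% lower. In it, 8 genes were matched through the letters AP2 in the name of a DNA-binding domain, 5 were named agamous-like, and 1, Bra031223, was stress enhanced protein 2, a chlorophyll-binding protein matched by the symbol SEP2 that it shares with a floral gene. Its 804 normalised reads in the mutant and 1712 in the wild type set the direction of the summed level, which was 2159 in the mutant and 2953 in the wild type with it, and 1356 in the mutant and 1242 in the wild type without it. The AGL8 homologue Bra012997 had 14.2 normalised reads in the mutant and 0 reads in the wild type, and the AGL9 homologue Bra010955 had 25.7 in the mutant and 0.675 in the wild type. The AP2 gene Bra003701 had 20.6 normalised reads in the mutant and 0 reads in the wild type. Some of the 10 higher genes were more abundant than these. AGL80 (Bra041022) had 297 normalised reads in the mutant and 52.6 in the wild type, and the AP2 gene Bra028690 had 155 and 35.9. Besides Bra031223, 3 genes of the list were lower, also at higher levels than the AGL8 and AGL9 homologues. AGL42 (Bra029281) had 141 normalised reads in the mutant and 339 in the wild type. The AP2 genes Bra009250 and Bra035919 had 157 and 88.4 in the mutant, against 377 and 250 in the wild type. Whether organ make-up had a part in the myrosinase values was not tested.

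The genes most like Bra020549, which among members with library counts had the highest level summed over both strains, were found by Pearson's r of log2(normalised reads + 1) over the 6 libraries, as a description with no test. As the strains did not overlap in any of these genes, such r mostly reflects the difference between strains. The highest r among 2618 genes was 0.999, for Bra006164, a gene described only as a hypothetical protein, with 659 normalised reads in the mutant and 1695 in the wild type. Next came Bra037743 and Bra023719, which have no described product, Bra040633, described as a defense-related protein, and Bra036412, described as a myb family transcription factor, all with r of 0.998 or more. The defense-related gene had 229 normalised reads in the mutant and 1101 in the wild type. Among the family, Bra032343 stood highest on this scale, at position 39 with r of 0.994, and Bra038094 was at position 95. Bra039823, with its high value in wild type library B, was at position 948 with r of 0.923.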

How the data were processed

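The authors deposited 1 table of genes they had called different, in which every adjusted p-value was under 0.001 and every absolute log2 ratio at least 1. The submitters' processing notes list DESeq 1.10.1, TopHat2 2.0.12 and Bowtie2 2.2.3 without saying what each was used for. The genome build, annotation and counting method were not given in the sources used here. Per the file headers the deposited values are a mean read count per group (handled as a signal), a base mean (the mean of reads divided by size factors, handled as a score), the log2 ratio of base means, a p-value with its adjusted p-value, and a gene length. All lengths were multiples of 3 and were read as coding lengths.

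Whole reads per library were recovered as the counts whose sum equals the mean read count times 3 and whose size-factor-weighted mean equals the base mean to the last deposited digit. Exactly 1 solution in both strains was found for 2619 of 2958 genes (88.5%), and the other 339 were left out of the fit. Size factors were 1.04, 1.04 and 1.02 in the mutant and 0.988, 0.983 and 0.961 in the wild type. Between libraries of a strain the mean chi-square over genes was 2.69 to 4.29, above counting noise, and none was counted as a repeat. Recovery and fit were checked on simulated data. The 2619 genes were fitted with edgeR 4.0.16 (quasi-likelihood test, the authors' size factors, Benjamini-Hochberg adjustment over all of them), with each SE being the log2 change over the root of F. Folds are ratios of base means, and counting limits are exact conditional intervals on reads that cover counting error only. Mean reads of called genes sum to 1677855 per library in the mutant and 1348884 in the wild type, and the full depth is unknown here. The edgeR p-values weigh the difference between strains against the spread between libraries, estimated only over genes already called different. The independence of the libraries rests on the labels.

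The members and lists were chosen with earlier results of these data known. All members are named, with up to 6 genes of each related list (largest absolute log2 ratio, reads in both strains, at least 20 normalised reads on average), every gene of these lists with no read in a strain, and the 5 genes most like the recovered member with the highest level over both strains. The marker genes, CYP83B1, SUR1 and the genes next to a member by identifier were named after their values were seen. A permutation test planned for the summed reads is not reported, because the members come from a table of called genes. Of the identifiers, 0 of 2958 were found in the reference table of assembly CAAS_Brap_v3.01, so neither coordinates nor sequences are given. Alternatives were DESeq2 1.42.0, TMM scaling, a filter of at least 10 reads in 3 libraries, leaving out each library, stricter limits on the authors' calls, and other sums.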

Additional observations from a re-analysis of the deposited data

How the results depend on the processing

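No paired analysis was possible because no replicate number could be attached to a recovered library. The 9 members with library counts kept their direction and an adjusted p under 0.05 in all 81 refits by DESeq2, TMM scaling, the low-count filter or leaving out each library, with 7 lower and 2 higher throughout. As these genes were chosen by the authors for their difference, this says little about stability. TMM scaling shifted the log2 change of the median gene by -0.43. Over the refits Bra016676 ran from -4.57 to -3.85, Bra020523 from -1.84 to -1.33 and Bra023838 from 4.69 to 7.91. Adding 1 to both base means gave Bra023838 a log2 ratio of 4.19. With an absolute log2 limit of 2, 3 members were lower and 1 was higher, against 13.3% and 24.6% of the table. An authors' adjusted p under 1e-10 left 6 lower and 0 higher members, against 22.9% and 31.7% of the table. Enzymes alone gave 7 lower and 1 higher, as did a mean of at least 20 normalised reads. The log2 ratio of summed reads was -1.51 over the 9 recovered members, -1.62 over the 8 enzymes (chosen after seeing the data), -1.45 without Bra020549 and -1.55 per kilobase. At a log2 limit of 2 the other beta-glucosidases kept 1 lower and 0 higher genes, and glucosinolate synthesis 4 lower and 2 higher. Depth limits mainly Bra004012 and Bra023838, with 6 reads in the mutant and 2 in the wild type.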

Other observations

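Only 2 members had a gene with the next lower or higher identifier number in the table. Bra038093, described as a LigB subunit of a ring-opening dioxygenase, had 270.4 normalised reads in the mutant and 37.2 in the wild type, while its numerical neighbour Bra038094 was lower in the mutant. Bra023839, of unknown product, had 1957 normalised reads in the mutant and 858 in the wild type, and its neighbour Bra023838 was also higher. Whether such identifiers lie side by side in the genome was not checked here.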
